A study of Mus musculus with 17 samples.

Results

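The EphA receptors are one of the 2 classes of Eph receptor tyrosine kinases, and their genes were followed here through 12 mouse RNA-seq libraries of a series on fusion proteins of YAP, a transcriptional co-activator, in supratentorial ependymoma, a brain tumour. The 9 family members were taken by symbol (Epha1 to Epha8 and Epha10) from the 52850 gene symbols of the count tables, and all 9 were found. The YAP-M group held 4 libraries of brain tumours that arose after a construct named YAP-M had been brought into embryonic brains by in utero electroporation, an electric pulse that moves DNA into cells. The YMdIDR group held 3 libraries with a construct named YAP-MΔIDR; their labels name brain tumour tissue in one field and ES-derived neural progenitor cells in another. The SVZ group held 3 libraries of samples labelled wild-type, although the labels also call them brain tumour, and nothing but the title names the subventricular zone. NSC-YAP, with 2 libraries, stands for YAP-overexpressing neural progenitors made from embryonic stem (ES) cells. The labels give no promoter, strain or age, and no allele or agent that all 4 groups share. Nothing says whether each replicate was its own animal or culture, so p-values measure only the spread between these samples, which may be technical.

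Eph receptors bind ephrins, ligands that are themselves fixed to the surface of the neighbouring cell, so signalling needs cell contact and can run into both cells. EphA receptors mostly bind the lipid-anchored ephrin-A ligands, EphB receptors mostly bind the transmembrane ephrin-B ligands, and Epha4 binds ligands of both classes. In the brain the family is known for steering axons and migrating neuroblasts and for keeping cell populations apart, while Epha2 is best known from epithelia and from tumours.

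Total counts per library ranged from 20784130 to 25463303, and levels are given as CPM, counts per 1e6 counts of the scaled library size. The rank correlation between libraries of 1 group was 0.963 to 0.997 over all tested genes. The lowest values were those of YMdIDR replicate 1 with the other YMdIDR libraries (0.963 and 0.964), against 0.982 between replicates 2 and 3, so YMdIDR results are given without replicate 1 where that changes them. The SVZ libraries held the most oligodendrocyte-lineage transcripts: 12 genes summed to 30000 to 35840 CPM against 771 to 3600 CPM in YAP-M, 405 to 1445 CPM in YMdIDR and 2493 to 2587 CPM in NSC-YAP. Most of the NSC-YAP sum was Olig1 (1574 and 1501 CPM) and Olig2 (624 and 587 CPM). Mog, Mag, Mobp and Cldn11 stayed under 1 CPM there. Mbp stood at 2.85 and 2.41 CPM in NSC-YAP, against 334 to 1430 CPM in YAP-M and 206 to 625 CPM in YMdIDR. The 12 microglia and macrophage genes summed to 2260 to 3370 CPM in YAP-M, 2840 to 3540 CPM in YMdIDR, 444 to 586 CPM in SVZ and 42.6 to 44.9 CPM in NSC-YAP. Of 8 endothelial genes, 6 stayed under 1 CPM in NSC-YAP and none did in YMdIDR, so the YMdIDR libraries held blood vessel and macrophage transcripts although a label names cultured cells. The 10 multiciliated ependymal genes summed to 22.1 to 41.2 CPM in YAP-M, 17.8 to 39.8 CPM in YMdIDR, 124 to 149 CPM in SVZ and 106 to 116 CPM in NSC-YAP. Most of the NSC-YAP sum was Rfx3 (57.1 and 66.0 CPM) and Foxj1 (37.3 and 37.6 CPM). Mcidas, Spag6l and Tmem212 had no count in NSC-YAP, and Dnah5 and Dnah9 stayed under 1 CPM. In these bulk samples fewer cells of a type and less RNA per cell cannot be told apart.

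The make-up of the family differed between the groups. Epha2 was the leading EphA gene of all 7 YAP-M and YMdIDR libraries while in SVZ it was the lowest of the 9 and in NSC-YAP the fourth. Epha4 and Epha7 led in SVZ, and Epha5 led in NSC-YAP. The members Epha5, Epha6, Epha8 and Epha10, all well expressed in SVZ, were called lower in the 2 groups with a YAP-M construct than in SVZ, by 9.13-fold to 20.6-fold in YAP-M. Epha1 and Epha7 separated the 2 construct groups from each other.

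These statements rest on CPM divided by the gene length that the tables list, in kilobases (kb). That length takes in every annotated exon, and it is 16739 bases for Epha5 against 3928 to 9884 bases for the others. On this scale the 9 levels summed to 25.4 to 28.9 CPM per kb in YAP-M, 26.2 to 44.2 in YMdIDR, 37.9 to 47.3 in SVZ and 10.7 to 11.7 in NSC-YAP. Epha2 held 53.4% to 59.7% of that sum in YAP-M and 44.5% to 55.4% in YMdIDR, against 0.589% to 0.745% in SVZ and 3.95% to 4.17% in NSC-YAP. The share of Epha4 was 23.4% to 32.5% in YAP-M, 23.0% to 29.4% in YMdIDR, 45.4% to 49.9% in SVZ and 30.4% to 32.5% in NSC-YAP. Epha5 held 53.9% to 54.6% in NSC-YAP, 10.6% to 12.7% in SVZ and at most 2.62% in the tumours and YMdIDR. The Epha2 shares of YAP-M and YMdIDR overlapped, and both lay above those of the other groups.

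**Figure D1:**
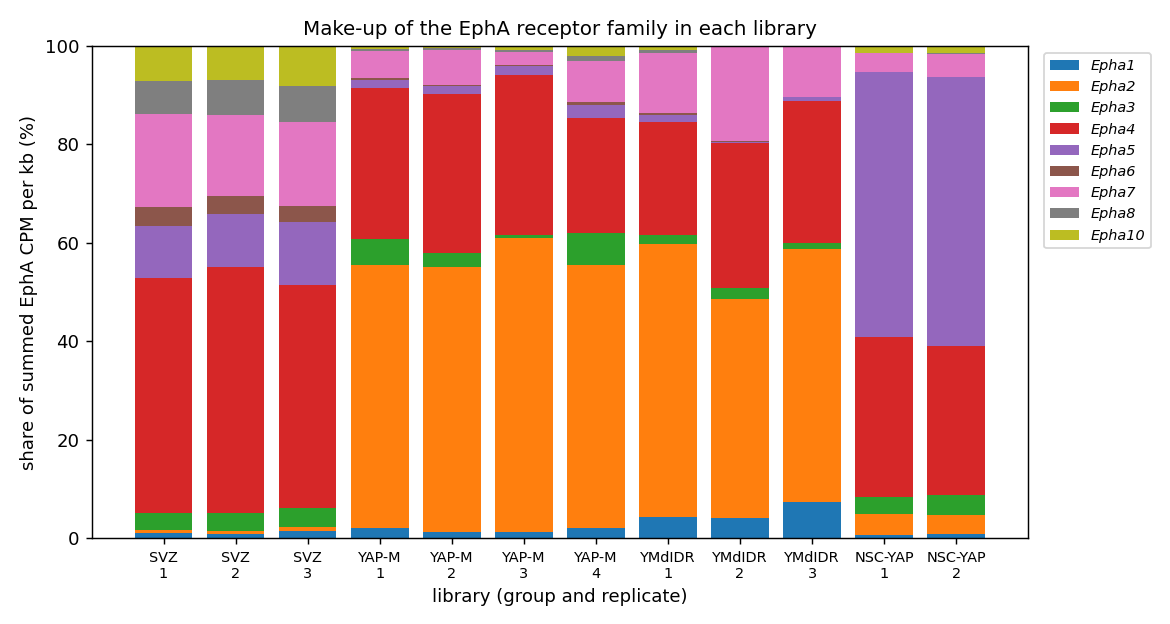
Share of each EphA receptor gene in the summed EphA level of each library (percent of summed CPM per kb), 1 bar a library, ordered by group. Epha2 makes up 44.5% to 59.7% of the bars of the YAP-M and YMdIDR libraries, Epha4 45.4% to 49.9% of the SVZ bars and Epha5 53.9% to 54.6% of the NSC-YAP bars.

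Within YAP-M the order per kb was Epha2 (15.1 ± 1.33 CPM per kb, SD, n = 4), Epha4 (8.15 ± 1.24) and Epha7 (1.60 ± 0.637), with no overlap between the libraries of these neighbours. From Epha7 downwards each gene overlapped the next: Epha3, Epha5, Epha1, Epha10, Epha8 and Epha6. In YMdIDR the order began with Epha2 (18.6 ± 4.12 CPM per kb, SD, n = 3), Epha4 (10.3 ± 3.73), Epha7 (5.21 ± 2.48) and Epha1 (2.03 ± 1.09); Epha4 overlapped Epha7, and Epha7 overlapped Epha1. In SVZ it began with Epha4 (21.0 ± 3.33 CPM per kb, SD, n = 3), Epha7 (7.66 ± 1.16) and Epha5 (4.95 ± 0.183), and ended with Epha1 (0.481 ± 0.0865) and Epha2 (0.295 ± 0.0258). The middle of the SVZ order, Epha10 with Epha8 and Epha3 with Epha6, could not be separated. In NSC-YAP Epha5 (6.06 ± 0.453 CPM per kb, SD, n = 2) stood above Epha4 (3.51 ± 0.0642), and the next 3, Epha7, Epha2 and Epha3, lay at 0.407 to 0.476 CPM per kb.

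A gene was called when its adjusted p was under 0.05 over all 18329 genes tested and its log2 fold change was at least 1 in size. All 9 members passed the filter on low counts (at least 1 CPM in at least 2 libraries), but Epha6 passed through SVZ alone, and Epha8 through SVZ and 1 YAP-M library. The comparison of YAP-M with SVZ sets tumours against wild-type samples: 1 member of 9 was called higher, where 25.8% of all genes tested were, and 6 were called lower, where 28.9% were. The median log2 fold change of the 9 was -2.26, against -0.04 over all genes tested. In YMdIDR against SVZ 2 members were called higher (26.9% of all genes) and 5 lower (29.6%), with a median of -1.35 against -0.01. Of all genes, 54.7% and 56.5% were called in either direction in these comparisons, and 7 of 9 members were in each.

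YAP-M against YMdIDR sets the full construct against the one lacking the part named IDR. No member was called higher in YAP-M with edgeR or DESeq2, where 9.61% of all genes were with edgeR. Epha5 was higher in YAP-M at an edgeR adjusted p of 0.0407, but its log2 fold change of 0.87 was under the size needed. Called lower in YAP-M were 2 of 9, Epha1 and Epha7, where 6.78% of all genes were. The median log2 fold change of the 9 was 0.60 (0.01 over all genes), and 16.4% of all genes were called in either direction. That median is the value of Epha6, from 6 to 23 counts a library, and quantile normalization gave Epha6 -0.0236. Without YMdIDR replicate 1, Epha5 and Epha8 were called higher in YAP-M as well, at log2 fold changes of 1.13 and 3.83. Over all genes 2566 of 18252 were called higher in YAP-M in that setting, against 1761 of 18329 with all libraries.

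Against NSC-YAP, YAP-M had 6 members called higher and 1 called lower, with 28.9% and 21.6% of all genes called in these directions and 50.4% in either. With the compared groups alone the count of higher members was 4, since Epha6 and Epha8 then missed the filter on low counts. YMdIDR had 5 members higher and 1 lower than NSC-YAP (27.4% and 20.4% of all genes, 47.8% in either direction). The 5 became 4 with the compared groups alone, where Epha6 missed the filter, and also under quantile normalization. NSC-YAP against SVZ had 7 members lower (27.6% of all genes) and none higher with edgeR or DESeq2 (17.5% of all genes with edgeR, 45.1% in either direction). Epha2 was higher in NSC-YAP at an edgeR adjusted p of 0.0232, but its log2 fold change of 0.62 was under the size needed. The median log2 fold changes of the 9 were 1.75 against 0.10 over all genes for YAP-M, 2.46 against 0.13 for YMdIDR and -2.58 against -0.10 for NSC-YAP against SVZ. Quantile normalization moved these 3 medians over all genes to -0.18, -0.13 and 0.25, and the share of higher genes among those called from 57.3% to 43.3%, from 57.3% to 44.3% and from 38.7% to 55.8%. The median of 2.46 for YMdIDR is the value of Epha8, from 15, 1 and 1 counts against 0 and 2. Epha8 was not called there (edgeR adjusted p = 0.127), and quantile normalization gave it -0.69. The comparisons share groups, so their counts are not independent of each other.

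**Figure D2:**
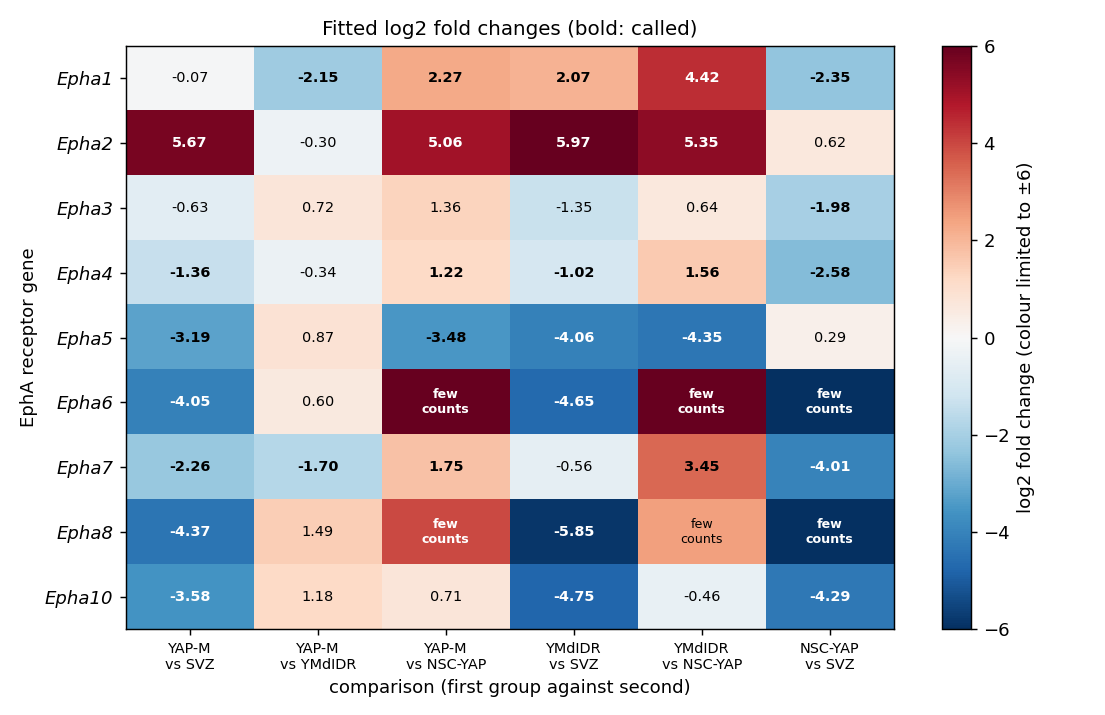
Fitted log2 fold change of the 9 EphA receptor genes (vertical axis) in the 6 comparisons (horizontal axis, first group against second); red is higher and blue lower in the first group, and bold marks called genes. Cells reading "few counts" have at most 3 counts in 1 group, so that no number is printed and the colour shows the direction only. Epha2 is red in the columns of YAP-M and YMdIDR against SVZ and NSC-YAP (5.06 to 5.97), and Epha5 blue in the same columns (-3.19 to -4.35).

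Epha2 (ENSMUSG00000006445, mm10 chromosome 4, 141301240 to 141329384, plus strand) encodes the family member best known from epithelia and tumours. It stood at 72.2, 64.0, 78.6 and 68.1 CPM in YAP-M replicates 1 to 4, and at 67.9, 86.3 and 106 CPM in YMdIDR. In SVZ it stood at 1.52, 1.30 and 1.32 CPM, and in NSC-YAP at 2.08 and 2.16 CPM. Every library of YAP-M and YMdIDR lay above every library of SVZ and NSC-YAP, while the libraries of YAP-M and YMdIDR overlapped. Against SVZ the log2 fold change was 5.67 ± 0.17 (SE) in YAP-M and 5.97 ± 0.18 in YMdIDR (edgeR adjusted p = 2.67e-09 and 1.94e-09). Against NSC-YAP it was 5.06 ± 0.18 and 5.35 ± 0.19 (adjusted p = 1.04e-08 and 8.59e-09). YAP-M and YMdIDR differed by -0.30 ± 0.14 (adjusted p = 0.1, not called). NSC-YAP lay above SVZ in both libraries, with a log2 fold change of 0.62 ± 0.21 (edgeR adjusted p = 0.0232) that is under the size needed for a call. Quantile normalization gave 1.75 and a call. The 8 epithelial marker genes summed to 309 to 1576 CPM in YAP-M and 150 to 225 CPM in YMdIDR. Their sums were 4.65 to 11.5 CPM in SVZ and 0.529 and 0.530 CPM in NSC-YAP. The part of epithelial-type cells in the Epha2 values was not tested.

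YAP acts on DNA through TEAD factors, whose core site reads GGAATG. RefSeq promoter windows (GRCm38.p6, 250 bases before to 50 after a gene start) were found for all 9 members, and the core was searched in both orientations, GGAATG and CATTCC. It occurred in the windows of Epha1, Epha2 and Epha3 and in none of the other 6 members, where 14.66% of all 32851 windows hold it. Epha2 held 2 matches, 243 and 56 bases before the start, and Epha1 (161 bases before) and Epha3 (244 bases before) held 1 each. The AP-1 site TGANTCA, present in 7.81% of all windows, was in none of the members' windows. A match is a description of letters and not a binding site, and the promoter windows are shown for the 3 members that hold the core, and for Epha8 as the window with the most CG pairs. Capitals mark the core, which lies on the minus strand of the gene in Epha1 and Epha2 and on the plus strand in Epha3; each sequence runs 5′ to 3′ on the gene's strand.
Epha2 (chr4:141300971-141301270, plus): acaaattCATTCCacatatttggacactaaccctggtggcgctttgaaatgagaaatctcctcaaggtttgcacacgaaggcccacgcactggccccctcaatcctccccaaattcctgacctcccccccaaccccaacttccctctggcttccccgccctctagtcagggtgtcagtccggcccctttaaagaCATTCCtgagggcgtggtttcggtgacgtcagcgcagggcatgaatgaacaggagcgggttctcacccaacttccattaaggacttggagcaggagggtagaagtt
Epha1 (chr6:42373219-42373518, minus): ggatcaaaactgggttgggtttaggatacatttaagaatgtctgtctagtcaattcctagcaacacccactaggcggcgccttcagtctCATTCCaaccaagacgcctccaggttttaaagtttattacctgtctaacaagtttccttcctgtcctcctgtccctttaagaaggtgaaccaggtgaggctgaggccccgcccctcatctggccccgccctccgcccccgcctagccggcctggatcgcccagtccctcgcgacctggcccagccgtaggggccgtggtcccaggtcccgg
Epha3 (chr16:63864126-63864425, minus): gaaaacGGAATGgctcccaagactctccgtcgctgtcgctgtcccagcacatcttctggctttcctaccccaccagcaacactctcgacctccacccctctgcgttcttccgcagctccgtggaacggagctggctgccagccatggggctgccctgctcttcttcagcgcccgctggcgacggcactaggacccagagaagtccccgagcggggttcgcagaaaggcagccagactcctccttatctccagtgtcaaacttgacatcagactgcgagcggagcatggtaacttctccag
Epha8 (chr4:136956767-136957066, minus): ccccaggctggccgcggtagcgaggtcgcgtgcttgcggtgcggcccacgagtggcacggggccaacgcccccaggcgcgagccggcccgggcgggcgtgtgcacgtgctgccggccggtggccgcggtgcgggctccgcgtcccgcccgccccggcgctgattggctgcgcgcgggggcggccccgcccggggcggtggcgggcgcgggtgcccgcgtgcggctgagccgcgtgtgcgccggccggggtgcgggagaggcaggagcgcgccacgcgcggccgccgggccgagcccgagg

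The Epha2 window had the lowest share of G and C in the family, 54.7%, and 10 CG pairs; the median over all windows was 52.7% and 7. The Epha8 window had the highest, with 84.3% G and C and 56 CG pairs. The Epha5 window, with 64.3% and 30 pairs, and the first Epha7 window, with 67.0% and 28, lay between. Epha2 had the fewest CG pairs among the 9, and all 9 members were above the median of all windows in both measures.

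Epha1 (ENSMUSG00000029859, mm10 chromosome 6, 42358487 to 42373268, minus strand), the founding member of the family, was, beside Epha2, the other member called higher than in SVZ with a YAP-M construct, in YMdIDR and not in YAP-M. Its levels were 4.45, 6.71 and 12.7 CPM in YMdIDR, from 104, 149 and 288 counts. They were 2.28, 1.37, 1.32 and 2.19 CPM in YAP-M, 1.84, 1.57 and 2.25 CPM in SVZ, and 0.326 and 0.408 CPM in NSC-YAP. The YMdIDR libraries lay above all others without overlap, YAP-M and SVZ overlapped, and NSC-YAP lay below all, on 8 and 10 counts. The log2 fold change was 2.07 ± 0.38 (SE) for YMdIDR against SVZ and -2.15 ± 0.35 for YAP-M against YMdIDR (edgeR adjusted p = 0.000442 and 0.000785). It was -0.07 ± 0.36 for YAP-M against SVZ (adjusted p = 0.862), with a sign that depended on the scaling. NSC-YAP lay lower than SVZ by -2.35 ± 0.52 and YAP-M higher than NSC-YAP by 2.27 ± 0.50, 2 calls that quantile normalization removed (-0.39 and 0.43).

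Epha1 shares 1727 bases of its span with the oppositely oriented gene Zyx, which encodes zyxin, a protein of focal adhesions, and the tables do not say whether counting used strand. Zyx stood at 459 to 557 CPM in YAP-M, 795 to 1148 CPM in YMdIDR, 54.2 to 64.7 CPM in SVZ and 74.9 and 76.1 CPM in NSC-YAP. The Epha1 count was 0.257% to 0.486% of the Zyx count in YAP-M, 0.441% to 1.60% in YMdIDR, 2.80% to 4.14% in SVZ and 0.428% and 0.544% in NSC-YAP. YMdIDR replicate 3 had the highest Epha1 level and the lowest Zyx level of its group. Zyx was also higher in YMdIDR than in YAP-M in every library, though not called (log2 fold change of YAP-M against YMdIDR -0.96), and its part in the Epha1 counts was not tested, so the Epha1 values are uncertain.

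**Figure D3:**
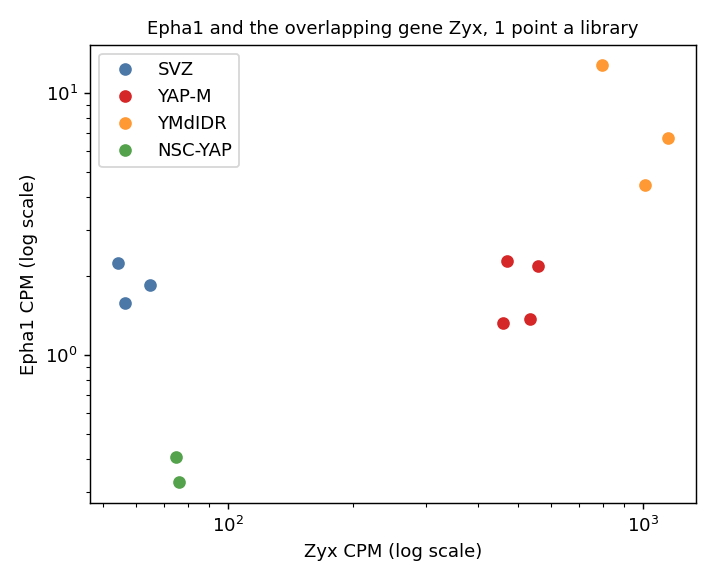
Epha1 level against the level of the overlapping gene Zyx in each library (CPM, both axes logarithmic), 1 point a library, coloured by group. YMdIDR points are highest on both axes (Epha1 4.45 to 12.7 CPM), while SVZ and YAP-M points overlap in Epha1 level at Zyx levels of 54.2 to 64.7 and 459 to 557 CPM.

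Epha4 (ENSMUSG00000026235, mm10 chromosome 1, 77367185 to 77515088, minus strand), the receptor that takes ligands of both classes, had the most counts of the family in SVZ. It stood at 178, 189.9 and 139 CPM there, and at 71.3, 66.4, 73.5 and 51.4 CPM in YAP-M. In YMdIDR it stood at 48.5, 98.3 and 102 CPM, and in NSC-YAP at 27.9 and 28.6 CPM. SVZ lay above all other libraries, NSC-YAP below all, and YAP-M and YMdIDR overlapped between them. YAP-M was lower than SVZ by a log2 fold change of -1.36 ± 0.23 (SE, edgeR adjusted p = 0.000212) and higher than NSC-YAP by 1.22 ± 0.26 (0.00217). NSC-YAP was lower than SVZ by -2.58 ± 0.28 (2.29e-05). YMdIDR was lower than SVZ by -1.02 ± 0.25 (adjusted p = 0.00275), at the edge of the size needed: without YMdIDR replicate 1, which holds the low value, it was -0.75 and not called, and with DESeq2 it was -0.997 and not called. YMdIDR was higher than NSC-YAP by 1.56 ± 0.28 (adjusted p = 0.000644).

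Epha7 (ENSMUSG00000028289, mm10 chromosome 4, 28813131 to 28967499, plus strand), known from the developing forebrain, was higher in YMdIDR than in the YAP-M tumours. Its levels were 31.9, 79.1 and 43.5 CPM in YMdIDR, and 15.5, 17.8, 7.46 and 22.5 CPM in YAP-M. In SVZ they were 86.3, 77.1 and 63.6 CPM, and in NSC-YAP 4.03 and 5.38 CPM. YMdIDR overlapped SVZ, YAP-M lay below both, and NSC-YAP lay lowest, with no overlap between these steps. YAP-M against YMdIDR had a log2 fold change of -1.70 ± 0.36 (SE, edgeR adjusted p = 0.00317), and YAP-M against SVZ -2.26 ± 0.35 (0.000134). YMdIDR against SVZ was -0.56 ± 0.38 (0.194, not called). NSC-YAP was lower than SVZ by -4.01 ± 0.45 (4.07e-05), lower than YMdIDR (3.45 ± 0.45 for YMdIDR against NSC-YAP, 9.71e-05) and lower than YAP-M (1.75 ± 0.43 for YAP-M against NSC-YAP, 0.00474).

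Epha3 (ENSMUSG00000052504, mm10 chromosome 16, 63543538 to 63864158, minus strand), a receptor of axon guidance, varied widely among the YAP-M tumours. Its levels in YAP-M were 8.65, 4.00, 0.980 and 9.91 CPM, so that replicate 3 lay under every library of the other groups. In SVZ it stood at 8.98, 10.1 and 8.31 CPM, in YMdIDR at 2.65, 5.27 and 2.83 CPM, and in NSC-YAP at 2.04 and 2.57 CPM. One comparison was called, NSC-YAP against SVZ (-1.98 ± 0.69, SE, edgeR adjusted p = 0.032). That call was lost with each SVZ library left out in turn (edgeR adjusted p = 0.051 to 0.066), at log2 fold changes of -1.89 to -2.04. With 1 NSC-YAP library left out the log2 fold change was -1.79 or -2.15. The call held with the compared groups alone and was lost under quantile normalization (-1.16). YAP-M against SVZ was -0.63 ± 0.56 (0.312). Without YAP-M replicate 3, YAP-M was called higher than NSC-YAP (1.74, adjusted p = 0.00342, against 1.36 and 0.0969 with it) and higher than YMdIDR (1.08, 0.032, against 0.72 and 0.332). DESeq2 called Epha3 lower in YMdIDR than in SVZ (-1.32, adjusted p = 0.0388, against -1.35 and 0.0624 with edgeR) and higher in YAP-M than in NSC-YAP (1.44, 0.0381).

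The remaining 4 members, Epha5, Epha6, Epha8 and Epha10, had in common a high level in SVZ and a low level with both constructs. Epha5, Epha6 and Epha8 encode receptors known from neurons and axon guidance, and Epha10 encodes a receptor without kinase activity. Neuron markers moved the same way: all 15 neuron genes were called lower in YAP-M than in SVZ, where 28.9% of all genes were. In YMdIDR 14 of the 15 were, where 29.6% of all genes were. The fall was not particular to neurons. Of 12 oligodendrocyte genes, 11 were called lower in both groups. Of 9 astrocyte genes, 5 were called lower in YAP-M and 7 in YMdIDR, and 1 was called higher in each. The neuron genes summed to 6408 to 6788 CPM in SVZ, 343 to 888 CPM in YAP-M, 501 to 584 CPM in YMdIDR and 877 to 953 CPM in NSC-YAP. The largest values in each YMdIDR library were those of Stmn2 (134 to 240 CPM) and Tubb3 (113 to 177 CPM). Between YAP-M and YMdIDR, 4 of the 15 were called higher in YAP-M and 2 lower, where 9.61% and 6.78% of all genes were. The median log2 fold change of the 15 was 1.03 there. No neuron marker was at 0 in all libraries of a group. In NSC-YAP, Stmn2, Gad2, Slc17a7 and Nefl stayed under 1 CPM, while Map2 stood at 654 and 719.9 CPM and Dcx at 52.2 and 58.4 CPM, above the 33.8 to 41.4 CPM of Dcx in SVZ. The part of neuron, oligodendrocyte or astrocyte content in the EphA values was not tested.

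Epha5 (ENSMUSG00000029245, mm10 chromosome 5, 84054761 to 84417382, minus strand) differed from the other 3 by its level in NSC-YAP. It stood at 82.1, 86.3 and 80.4 CPM in SVZ and at 96.2 and 107 CPM in NSC-YAP. In YAP-M it stood at 8.65, 6.82, 8.91 and 11.9 CPM, and in YMdIDR at 6.62, 2.16 and 6.14 CPM. NSC-YAP lay above SVZ in both libraries, by a log2 fold change of 0.29 ± 0.33 (SE, edgeR adjusted p = 0.462, not called), and all 4 groups were free of overlap. YAP-M was lower than SVZ by -3.19 ± 0.29 (2.24e-06) and lower than NSC-YAP by -3.48 ± 0.32 (2.22e-06). YMdIDR was lower than SVZ by -4.06 ± 0.32 (1.13e-06) and than NSC-YAP by -4.35 ± 0.35 (1.36e-06). YAP-M against YMdIDR was 0.87 ± 0.30 (0.0407, under the size needed).

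Epha6 (ENSMUSG00000055540, mm10 chromosome 16, 59653483 to 60605531, minus strand), whose gene spans 952049 bases, was at 9.21, 8.85 and 6.65 CPM in SVZ. It was at 0.589, 0.259, 0.256 and 0.853 CPM in YAP-M and at 0.342, 0.270 and 0.353 CPM in YMdIDR, from 6 to 23 counts a library. NSC-YAP had no count in either library. YAP-M was lower than SVZ by -4.05 ± 0.38 (log2, SE, edgeR adjusted p = 4.95e-06) and YMdIDR by -4.65 ± 0.45 (5.83e-06). SVZ was at least 135-fold higher than NSC-YAP, YAP-M at least 8.13-fold and YMdIDR at least 5.27-fold, each against a floor of 3 counts over the NSC-YAP group. Quantile normalization removed the calls of YAP-M and YMdIDR against NSC-YAP (adjusted p = 0.112 and 0.126).

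Epha8 (ENSMUSG00000028661, mm10 chromosome 4, 136929419 to 136956816, minus strand) stood at 14.8, 15.7 and 13.3 CPM in SVZ. It stood at 0.589, 0.482, 0.469 and 1.26 CPM in YAP-M, from 11 to 34 counts. YMdIDR replicate 1 had 15 counts (0.641 CPM) and replicates 2 and 3 had 1 count each, while NSC-YAP had 0 and 2 counts. All other groups lay far below SVZ, YAP-M by -4.37 ± 0.56 (log2, SE, edgeR adjusted p = 3.42e-05) and YMdIDR by -5.85 ± 0.74 (2.19e-05). Without YMdIDR replicate 1 that last value was -8.19, fitted on the 2 remaining counts. SVZ was 359 times above NSC-YAP (95% counting interval 99.0 to 2967), and YAP-M 17.4 times (4.64 to 146). The call of YAP-M against NSC-YAP was lost without NSC-YAP replicate 1 (adjusted p = 0.0769) and under quantile normalization (0.417). YAP-M against YMdIDR was not called (1.49 ± 0.75, adjusted p = 0.119), but it was 3.83 and called without YMdIDR replicate 1 (0.00282).

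Epha10 (ENSMUSG00000028876, mm10 chromosome 4, 124880899 to 124917800, plus strand) stood at 23.8, 23.8 and 22.0 CPM in SVZ. The other groups overlapped: YAP-M held 1.21, 0.704, 1.83 and 4.01 CPM, YMdIDR 1.62, 0.0450 and 0.883 CPM, and NSC-YAP 1.10 and 1.26 CPM. YMdIDR replicate 2 had 1 count. Against SVZ the log2 fold change was -3.58 ± 0.61 in YAP-M, -4.75 ± 0.72 in YMdIDR and -4.29 ± 0.78 in NSC-YAP (SE, edgeR adjusted p = 0.000315, 0.000161 and 0.00128). Without YMdIDR replicate 1, YMdIDR against SVZ was -5.62. None of the other 3 comparisons was called for Epha10.

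**Figure D4:**
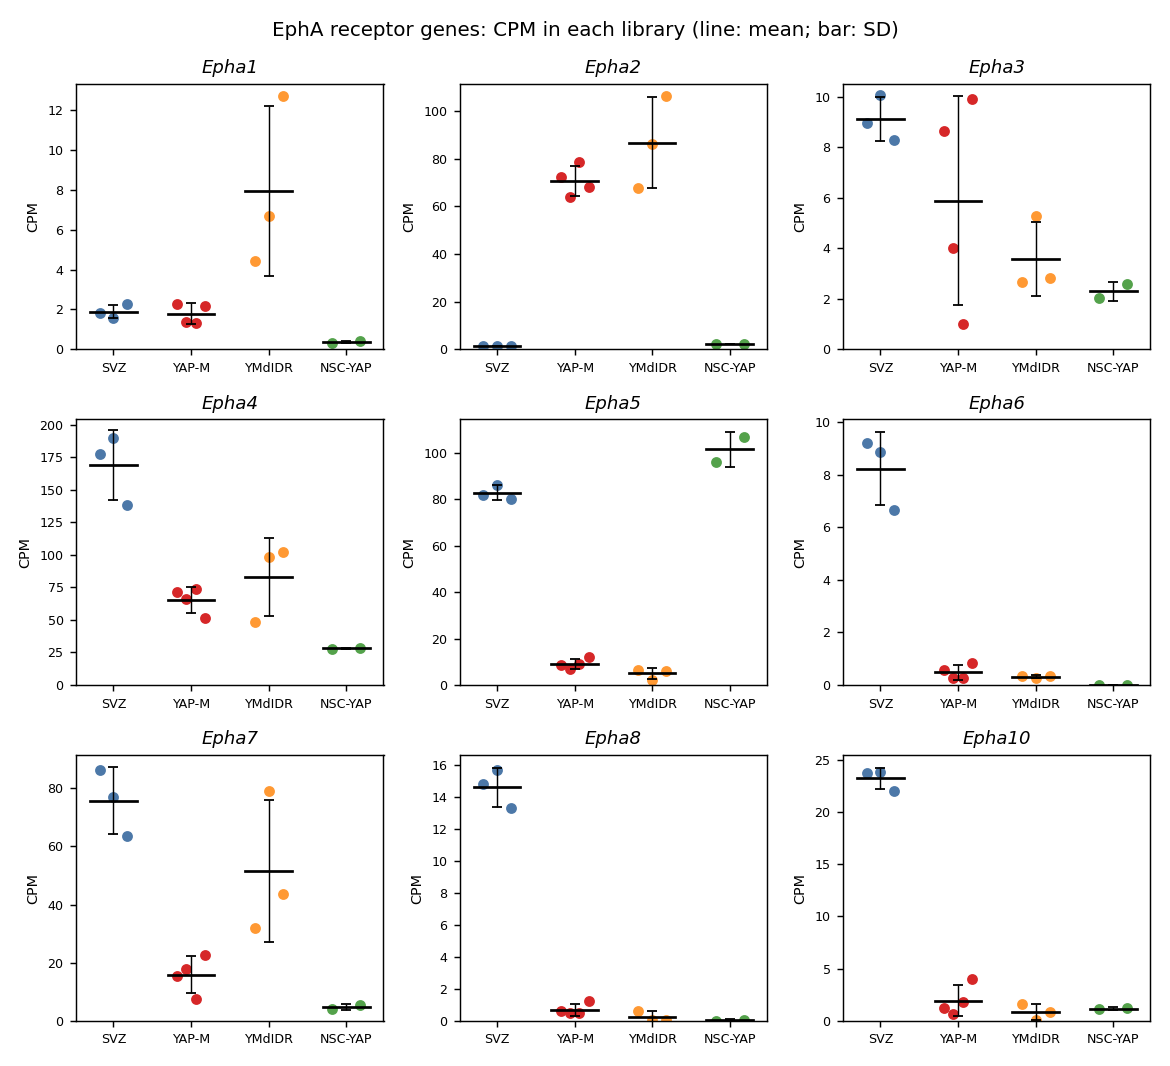
Level of each EphA receptor gene (CPM, vertical axes from 0, each panel with its own scale) in every library by group; points are libraries, lines group means and bars SD. Epha2 is high in YAP-M and YMdIDR alone (64.0 to 106 CPM), Epha6, Epha8 and Epha10 are high in SVZ alone, and Epha5 is high in SVZ and NSC-YAP (80.4 to 107 CPM).

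The ephrin-A ligands, which these receptors bind, moved in different directions. In YAP-M against SVZ, 3 of 5 rose past both thresholds and 2 fell past them, where 25.8% and 28.9% of all genes did. Efna5 had the highest level per kb of them in every YAP-M library (mean 9.43 ± 1.90 CPM per kb, SD, n = 4), while in YMdIDR Efna2 (6.90) and Efna5 (6.70) lay close. The level of Efna5 was 28.2 to 46.7 CPM in YAP-M and 23.8 to 28.7 CPM in YMdIDR against 15.8 to 17.0 CPM in SVZ. It had no count in either NSC-YAP library, so YAP-M was at least 628-fold and SVZ at least 269-fold higher than NSC-YAP, against a floor of 3 counts over the group. Efna1, a main ligand of Epha2, was called higher in YAP-M than in SVZ (log2 fold change 1.17 ± 0.22, SE), YMdIDR (1.24 ± 0.22) and NSC-YAP (2.20 ± 0.26; edgeR adjusted p = 0.000628, 0.0016 and 3.47e-05). Its levels were 7.03 to 10.6 CPM in YAP-M, 2.88 to 4.96 CPM in YMdIDR and 3.37 to 4.33 CPM in SVZ.

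Efna2 went the other way and was called lower in YAP-M than in every other group: 1.87 to 5.603 CPM against 11.7 to 17.5 CPM in YMdIDR, 12.4 to 13.1 CPM in SVZ and 9.13 and 10.5 CPM in NSC-YAP. The log2 fold change of YAP-M against YMdIDR was -2.22 ± 0.32 (SE, edgeR adjusted p = 0.000402). Efna4 was called higher in YMdIDR than in YAP-M (-1.42 ± 0.30 for YAP-M against YMdIDR, 0.00355) and lay at 0.184 to 0.44 CPM in SVZ, from 4 to 9 counts. Efna3 was called lower in YAP-M (-3.73 ± 0.34) and YMdIDR (-3.46 ± 0.37) than in SVZ, where it stood at 18.4 to 24.4 CPM. Between YAP-M and YMdIDR, 3 of the 5 ephrin-A genes passed: Efna1 was higher in YAP-M, and Efna2 and Efna4 were lower. Of all genes, 9.61% were called higher and 6.78% lower there.

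The ephrin-B ligands, which Epha4 can also bind, held the ephrin gene with the highest CPM per kb in each YAP-M library, Efnb1. Efnb1 stood at 51.1 to 95.4 CPM in YAP-M and 25.1 to 63.5 CPM in YMdIDR, against 8.40 to 10.0 CPM in SVZ, and was called higher in both (log2 fold change 3.08 ± 0.29 and 2.15 ± 0.31, SE, edgeR adjusted p = 5.25e-06 and 7.98e-05). Efnb3 fell from 171 to 176 CPM in SVZ to 4.67 to 19.9 CPM in YAP-M (-3.87 ± 0.50) and 1.98 to 9.02 CPM in YMdIDR (-5.13 ± 0.55, and -5.90 without YMdIDR replicate 1). Efnb2 was not called between YAP-M, YMdIDR and SVZ, and it was lower in NSC-YAP, at 10.3 CPM in both libraries against 36.6 to 42.0 CPM in SVZ (-1.91 ± 0.19). None of the 3 was called between YAP-M and YMdIDR with edgeR, where 16.4% of all genes were in either direction. Efnb1 and Efnb3 had an unadjusted p under 0.05, and DESeq2 called 1 of the 3, Efnb3. Without YMdIDR replicate 1, 2 of the 3 were called higher in YAP-M. Calls over all genes rose as well in that setting: 2566 of 18252 genes were higher in YAP-M, against 1761 of 18329 with all libraries.

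**Figure D5:**
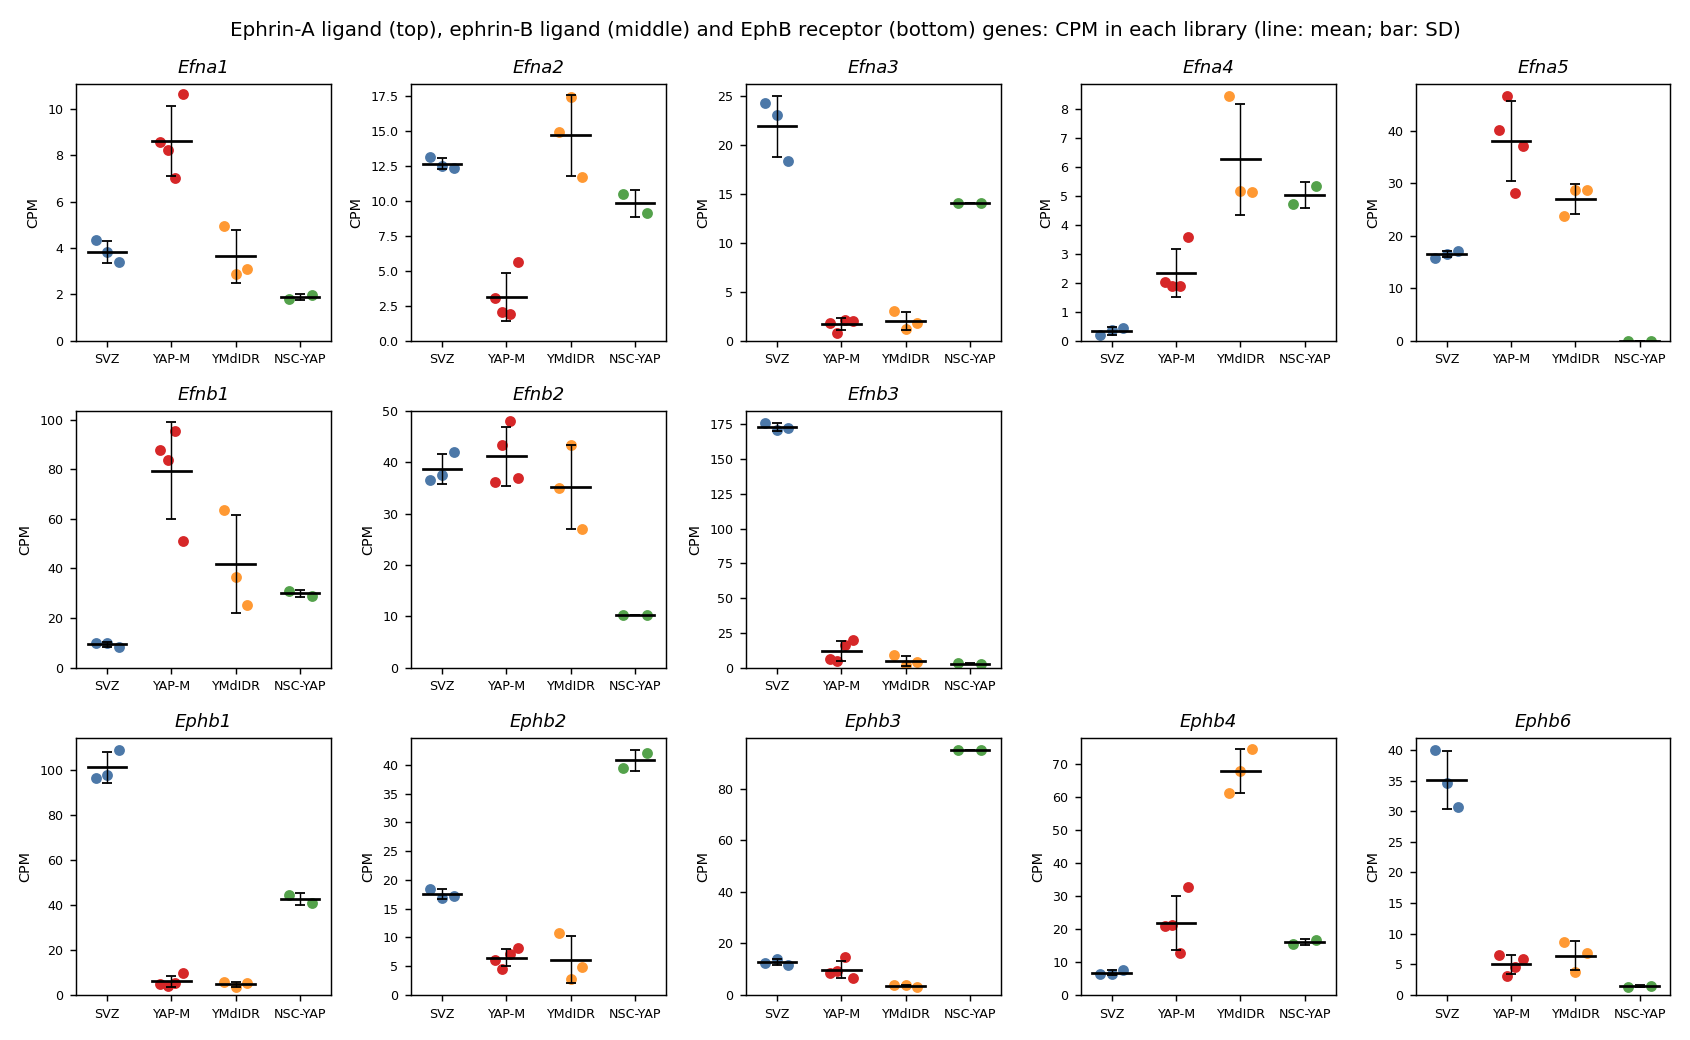
Level of the ephrin-A, ephrin-B and EphB genes (CPM, vertical axes from 0, each panel with its own scale) in every library by group; points are libraries, lines group means and bars SD. Efnb1 is high in YAP-M (51.1 to 95.4 CPM) with an overlap to YMdIDR (25.1 to 63.5 CPM), Ephb4 is highest in YMdIDR (61.2 to 74.4 CPM), Ephb1 and Efnb3 in SVZ and Ephb3 in NSC-YAP (95.2 CPM in both libraries).

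Among the 5 EphB receptors, YAP-M had 1 called higher and 3 called lower than in SVZ, and YMdIDR 1 and 4. The shares over all genes were 25.8% and 28.9% for YAP-M and 26.9% and 29.6% for YMdIDR. The gene that rose in both was Ephb4, known from vein endothelium: 12.6 to 32.7 CPM in YAP-M and 61.2 to 74.4 CPM in YMdIDR against 6.20 to 7.52 CPM in SVZ. Its log2 fold changes were 1.70 ± 0.25 (SE) and 3.33 ± 0.26, and YAP-M was lower than YMdIDR by -1.64 ± 0.24 (edgeR adjusted p = 0.00043). Of 8 endothelial genes, 3 were called higher in YAP-M than in YMdIDR and none lower, where 9.61% and 6.78% of all genes were. The 8 summed to 266 to 390 CPM in YAP-M against 178 to 238 CPM in YMdIDR, and their part in the Ephb4 values was not tested. Ephb1, a receptor of neural tissue, was lower in YAP-M by -4.07 ± 0.26 and in YMdIDR by -4.42 ± 0.28 than in SVZ. Ephb3 was highest in NSC-YAP, at 95.2 CPM in both libraries against 11.8 to 14.02 CPM in SVZ, 6.68 to 14.5 CPM in YAP-M and 3.22 to 3.76 CPM in YMdIDR. Ephb6, a receptor without kinase activity like Epha10, was lower in YAP-M (-2.81 ± 0.29), YMdIDR (-2.45 ± 0.31) and NSC-YAP (-4.66 ± 0.38) than in SVZ.

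Of 26 genes that act with or below Eph receptors, YAP-M had 5 called higher and 9 called lower than in SVZ, where 25.8% and 28.9% of all genes were, with a median log2 fold change of -0.24 (-0.04 over all genes). In YMdIDR 3 were higher and 9 lower, where 26.9% and 29.6% of all genes were. These counts were not tested against the shares of all genes, and no result about the 26 genes is read from them. Lyn, a Src-family kinase gene, stood at 140 to 203 CPM in YAP-M and 103 to 149 CPM in YMdIDR against 12.02 to 14.6 CPM in SVZ (3.74 ± 0.16 and 3.20 ± 0.17, log2, SE). Macrophages express Lyn too, and their 12 markers were called higher in 10 cases in both groups against SVZ; their part in the Lyn values was not tested. Tiam1 and Chn1, which act on the small GTPase Rac downstream of Eph receptors, were lower in YAP-M than in SVZ by -2.20 ± 0.11 and -3.32 ± 0.21. Between YAP-M and YMdIDR, 2 of the 26 were called higher in YAP-M, where 9.61% of all genes were. They were Tiam1 (1.48 ± 0.12, edgeR adjusted p = 2.8e-05) and Anks1b (1.31 ± 0.24, 0.00203). None was called lower with edgeR or DESeq2, where 6.78% of all genes were with edgeR, while 5 had an unadjusted p under 0.05 in that direction. One of those 5 was the kinase gene Src, at 57.3 to 60.9 CPM in YAP-M against 84.8 to 91.6 CPM in YMdIDR (-0.57 ± 0.07, 0.000139, under the size needed).

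NSC-YAP differed from YAP-M in 12 of the 26, with 5 higher and 7 lower in YAP-M, a share no larger than the 50.4% over all genes (28.9% higher and 21.6% lower). Arhgef15, which encodes ephexin 5, had 1 count in 1 of the NSC-YAP libraries against 4.602 to 5.78 CPM in YAP-M and 16.5 to 17.6 CPM in SVZ. SVZ was 837 times above NSC-YAP (95% counting interval 150 to 33090), and Arhgef15 was lower in YAP-M than in SVZ by -1.78 ± 0.21 (log2, SE, edgeR adjusted p = 1.49e-05). Spsb4, the gene of a ubiquitin ligase adaptor, was highest in NSC-YAP, at 31.2 and 32.2 CPM against 1.07 to 1.87 CPM in YAP-M, 1.08 to 2.05 CPM in YMdIDR and 4.31 to 5.18 CPM in SVZ.

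The genes most like each member over the 12 libraries, by the Pearson correlation of log2(CPM + 1), are a description that mainly follows the difference between groups, which all genes compared share. They were Elf4 and Tpst2 (r = 0.998 each) and Pmp22 (0.997) for Epha2. They were Ppp2r2b, Rbm24 and Adgrb2 (0.996 each) for Epha5, C2cd2l (0.997), Cplx3 and Gpr12 (0.995 each) for Epha6, and Prrt3 (0.998), Cntnap1 and Rgs8 (0.997 each) for Epha10. Epha8 went most closely with Kcns2 (0.997), Crhr1 and the entry named mmu-mir-770 (0.995 each). The other members had lower leading values: Ttll11, Grk2 and Fam19a2 (0.975, 0.966 and 0.963) for Epha7, Zmym1, Fkbp3 and B3gnt2 (0.967, 0.967 and 0.966) for Epha4, Crcp, Itgb7 and Donson (0.953, 0.952 and 0.942) for Epha1, and Vamp7, Med14 and Rspo2 (0.901, 0.853 and 0.847) for Epha3.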

How the data were processed

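RNA-seq was used from 12 of the 17 samples; the other 5, ChIP and CUT&RUN of YAP or of the histone mark H3K27ac, were not analysed here. Sample titles gave each library its group and number. The deposited files, 1 for each library, hold raw whole-number counts by gene; per the submitters' processing notes TopHat2 and mm10 were used. Which program counted reads, with what annotation and whether by strand, is not stated in the labels or headers. Entries of 1 symbol were summed, which left 52850 symbols from 53090 entries. Related Eph genes may share some reads.

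CPM used library sizes scaled by TMM factors (0.826 to 1.13). The 18329 genes that reached 1 CPM in 2 or more libraries were tested with the quasi-likelihood test of edgeR 4.0.16 (R 4.3.3), with 1 coefficient for each of the 4 groups, all 12 libraries in 1 fit and Benjamini-Hochberg adjustment over all genes tested. Values after ± are SE for log2 fold changes and SD over libraries for levels. Intervals and the floor of 3 counts cover counting error only.

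Named were all 9 members, all ephrin and EphB genes, the 6 signalling partners with the smallest adjusted p (Tiam1, Lyn, Arhgef15, Src, Spsb4 and Chn1) and the 3 genes most correlated with each member. Anks1b was named after its value was seen. The members and lists were chosen with earlier results of these data known. As alternatives, results were recomputed without a filter, with a minimum of 5 CPM, median-ratio scaling, quantile normalization with limma 3.58.1, DESeq2 1.42.0, the compared groups alone, the replicate number as a block, and leaving out each library. The tests were tried on simulated data. Promoter windows are from RefSeq (GRCm38.p6, the assembly of mm10). Figures used matplotlib 3.10.9.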

Additional observations from a re-analysis of the deposited data

Results flagged for a closer look

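Among the 28 genes checked in the 4 YAP-M libraries, 3 had a library that stood apart from the others by Dixon's criterion, which chance meets in about 1 of 20 groups. Epha8 stood at 1.26 CPM in YAP-M replicate 4, against 0.469 to 0.589 CPM in the others. Efna4 stood at 3.56 CPM in the same library, against 1.87 to 2.02 CPM. Src stood at 57.3 CPM in YAP-M replicate 1, against 60.4 to 60.9 CPM.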

How the results depend on the processing

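Of 696 values of single members under the alternatives, 652 kept their direction and their side of the threshold, 11 gained a call, 19 lost it and 14 changed sign. The counts of called members kept within 1.5 times of those reported, except as follows. Quantile normalization called 3 members higher in YAP-M against NSC-YAP and 1 higher in NSC-YAP against SVZ. Leaving out each library gave 0 to 2 members higher in YAP-M against YMdIDR. Leaving out an NSC-YAP library leaves 1, assumed to vary like the other groups.

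The sign changes were at values that were not called, except for Efna1 in NSC-YAP against SVZ. Epha1 in YAP-M against SVZ was 0.064 with no filter, 0.0022 with median-ratio scaling, 0.002 with DESeq2, 0.0408 with quantile normalization, 0.0182 with the compared groups alone and -0.14 to 0.15 with each library left out. Quantile normalization gave Epha6 -0.0236 in YAP-M against YMdIDR, Epha10 -0.72 in YAP-M against NSC-YAP, and in YMdIDR against NSC-YAP Epha3 -0.10, Epha8 -0.69, Efna4 -0.066 and Efnb3 -0.0328. It gave Spsb4 -0.18 in YAP-M against YMdIDR, and Efna1 0.21 in YMdIDR and 0.0198 in NSC-YAP against SVZ. Efna1 in YMdIDR against SVZ was 0.0013 with no filter. With a library left out, YAP-M against YMdIDR gave -0.50 to 0.17 for Efna3, -0.23 to 0.75 for Ephb2 and -0.12 to 0.40 for Spsb4. YMdIDR against SVZ gave -0.36 to 0.0917 for Efna1 and -0.30 to 0.0185 for Efnb2, and YMdIDR against NSC-YAP -1.33 to 0.0915 for Epha10 and -0.0374 to 1.11 for Efnb3. The cause was not tested.

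Libraries that share a replicate number mostly deviated little together (correlations -0.0968 to 0.386, over 0.1 in 4 of 15 pairs). The highest value, 0.386, was that of replicate 2 of YAP-M and YMdIDR. Libraries of unlike number were not compared in this way. The numbers were not taken as pairs. With the replicate number as a block, Epha10 in YAP-M against NSC-YAP was -0.11 and Epha3 in YMdIDR against SVZ was called (-1.39). The block gave counts of called members within 1.5 times of those reported in all 6 comparisons. At a minimum of 5 CPM, 819 genes in all were called lower in YAP-M than in YMdIDR, against 1242. Epha6, Epha8 and Epha10 rest on few counts outside SVZ.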
